A study of Bos taurus with 8 samples.

Results

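Satellite cells (SCs) of freshly digested bovine muscle were taken as the cells of Timepoint 1 that the authors' deposited annotation calls SCs. There were 647 of them among the 4395 cells of Timepoint 1 that passed quality control (14.7%), and among 36129 cells in the 5 libraries of the series. Timepoint 1 was semitendinosus muscle of 10 Belgian Blue cattle, digested with collagenase and taken as unsorted mononuclear cells directly after isolation. Cells of the 10 animals were mixed in equal ratios and read as 1 droplet library (10x 3′ chemistry), and each cell was returned to its animal with demuxlet, which matches variants in a cell's reads to genotypes from an array. The animals were 5 calves (4 female, 1 male) and 5 adults (3 female, 2 male), an assignment that comes from the study's table of animals, since the cell tables carry the number of the genotype but neither age nor sex. All 10 animals were of the same breed and none was treated, so the design allowed 3 views of the SCs: against the other 3748 cells of the same animals, between animals, and between calves and adults. Each animal's SC counts were summed, because cells of an animal are not replicates. The files give gene identifiers and no positions, so genes are named by symbol.

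SCs are the stem cells of skeletal muscle. They lie between the fibre membrane and the basement membrane, rest in quiescence until the muscle grows or is injured, and are set up and maintained by the transcription factors PAX7 and MYF5, Notch signalling and the calcitonin receptor. On activation they induce MYOD1 and divide, and those that commit switch on MYOG, leave the cell cycle and fuse. In cultured meat production they are the cells expanded to make muscle.

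Between 26 and 98 SCs came from each animal, which made up 10.3 to 21.0% of that animal's cells and held 97693 to 450674 UMIs (unique molecular identifiers, counted once per RNA molecule captured). Levels are given as CPM, UMIs of a gene per 1000000 UMIs of the sum. A gene at 0 in an animal's SCs could have been present at up to 6.66 to 30.7 CPM, the level that 3 UMIs make in the deepest and the shallowest sum, and this covers counting error only. The median SC held 3949 ± 778 UMIs and 1560 genes (mean ± SD over n = 10 animals), against 4305 ± 880 UMIs and 1660 genes in the other cells. The difference of -356.5 UMIs was not past the test (exact sign-flip permutation test over 10 animals, 2-sided, p = 0.211, higher in SCs in 4 of 10 animals). The mitochondrial share was 3.38 ± 0.493% of UMIs in SCs and 2.88 ± 0.244% in the other cells. It was higher in SCs in 10 of 10 animals, by 0.503 percentage points (p = 0.00195 by the same exact test, the smallest that 10 animals allow, adjusted p = 0.00586 over 3 measures).

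Levels of marker genes were read in the cells so labelled. The authors made the label from the same expression values, so these levels describe the labelled cells and are no independent check. The 8 SC markers summed to 1280 to 3113 CPM in SCs and to 40.3 to 145 CPM in the other cells, and 83 of the 647 SCs had no UMI of MYF5, CALCR, CHRDL2 or NCAM1. Markers of glia were at 0 in all SCs, and neutrophil markers summed to at most 10.2 CPM against 25939 CPM in neutrophils. Haemoglobin beta (HBB) was also at 0, but with animals pooled it was read in no type except vascular endothelium (1.22 CPM). The haemoglobin gene HBA was at 0.713 CPM in the pooled SCs. Lymphocyte markers summed to 0 to 8.25 CPM with CD2 and MS4A1 at 0, although MS4A1 was at 0 in the lymphocytes as well. Those of monocytes and macrophages summed to 3.06 to 20.6 CPM with CSF1R at 0. Markers of vascular endothelial cells (VECs) summed to 5.65 to 74.3 CPM, those of lymphatic endothelium to 25.1 to 102 CPM, nearly all of it the transcription factor PROX1 (43.5 CPM in the pooled SCs, with FLT4 at 1.07 and MMRN1 at 0.357 CPM), and those of tenocytes to 0 to 49.4 CPM. PROX1 was itself higher in SCs than in the other cells of all 10 animals (log2 fold change 2.40, SE 0.24). Fibro-adipogenic progenitor (FAP) markers reached 76.2 to 927 CPM against 27535 CPM in FAPs, smooth muscle and mesenchymal cell (SMMC) markers 75.2 to 646 CPM with CNN1 at 0, and myocyte markers 271 to 846 CPM against 57011 CPM in myocytes. In the pooled SCs nearly all of the SMMC sum was ACTA2 (245 CPM, with RGS5 at 13.6 and MYH11 at 6.78 CPM). Of the other types only SMMCs (8147 CPM) and neutrophils (385 CPM) held more ACTA2. FAP markers spanned 76.2 to 293 CPM in calf SCs and 110 to 927 CPM in adult SCs, and myocyte markers 361 to 846 and 271 to 388 CPM. In droplet data a UMI may come from free RNA, and how much of these levels did was not tested.

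Against the other cells of the same animals, 281 of 6488 genes were higher in SCs by more than 2-fold and in all 10 animals (4.33%), and 878 were lower by the same rule (13.5%). The median log2 fold change over all 6488 was 0.00. These are descriptions with no test, since the authors made the labels by clustering the same values. MYF5, a myogenic regulatory factor and the first of 4 SC markers described here, had 413 CPM in the lowest animal, 666.5 CPM at the median and 1678 CPM in the highest. The other cells of the 10 animals held 0.995 to 19.7 CPM. CALCR, the calcitonin receptor, which helps to hold SCs in quiescence, spanned 53.6 to 229 CPM with a median of 105 CPM in SCs and 0 to 1.92 CPM in the other cells. CHRDL2, which encodes a secreted protein that binds bone morphogenetic proteins, spanned 124 to 798 CPM with a median of 294 CPM, and 0 to 2.73 CPM in the other cells. For each of the 3 genes the lowest SC value lay far above the highest value in the other cells, and the annotated type next in level was the myocytes, at 66.2, 18.05 and 18.05 CPM. In myocytes 18.05 CPM is the level that 3 UMIs make, and types with few cells, at 0, could have held more. NCAM1, an adhesion molecule, had a closer level in another type. It spanned 184 to 417 CPM in SCs with a median of 268 CPM, against 6.52 to 41.1 CPM in the other cells, but the few glial cells held 225 CPM.

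**Figure D1:**
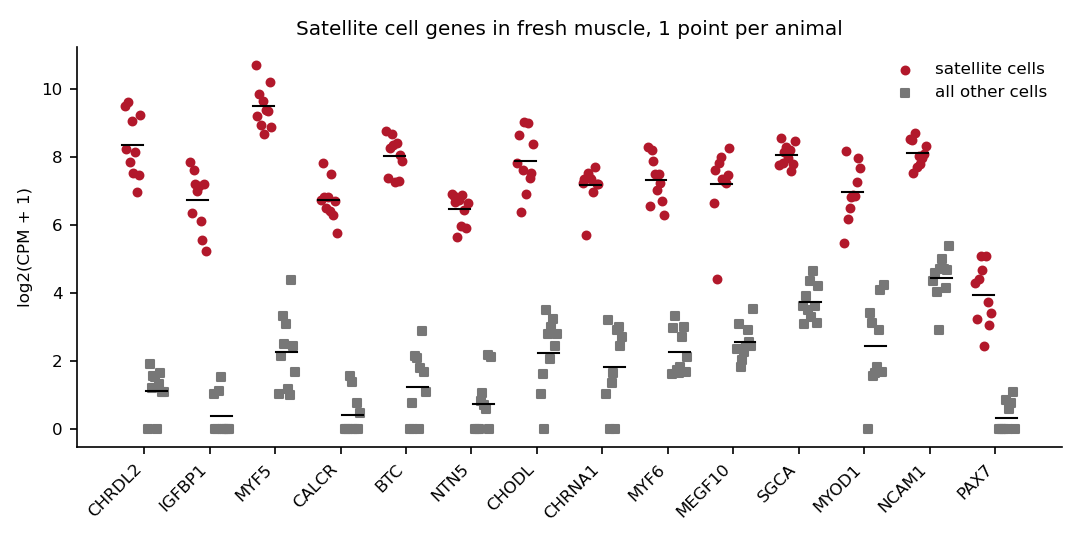
Level of 14 genes in each of the 10 animals as log2(CPM + 1), with SCs as red circles, all other cells of the same animal as grey squares and the mean over animals as a black line. MYF5 lay between 413 and 1678 CPM in SCs and at no more than 19.7 CPM in the other cells, while PAX7 did not exceed 33.0 CPM in any animal.

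The genes with the largest fitted differences beside these markers are given next. IGFBP1, which binds insulin-like growth factors, had a median of 135 CPM in SCs (36.6 to 232 CPM) and a log2 fold change of 7.27 (SE 0.30). BTC, the epidermal growth factor family ligand betacellulin, had a median of 286 CPM (153 to 438 CPM) and a log2 fold change of 6.87 (SE 0.28). NTN5, of the netrin family, spanned 49.5 to 119 CPM (log2 fold change 6.09, SE 0.31), and the secreted cerebellin CBLN4 spanned 72.5 to 248 CPM (5.57, SE 0.21). These 4 ligands and binding proteins were each higher in SCs in all 10 animals, and for NTN5 and CBLN4 the type next in level was the VECs, at 4.16 and 8.31 CPM, although types with few cells, at 0, could have held more. Of proteins that cut others, the carboxypeptidase CPA5 had a log2 fold change of 5.35 (SE 0.20) and the extracellular metalloprotease ADAMTS20 of 5.24 (SE 0.36), the latter with a higher level in glial cells (150 CPM) than in SCs (131 ± 46.3 CPM, n = 10). JSRP1, a protein of the sarcoplasmic reticulum junction, spanned 195 to 391 CPM (5.10, SE 0.15), and myocytes held 247 CPM. The 20 genes with the largest differences also held MGC138914 (6.33, SE 0.34), C4H7orf57 (5.75, SE 0.21), SEC1 (5.67, SE 0.34), POPDC3 of the Popeye domain family (5.34, SE 0.27) and the synaptic vesicle glycoprotein SV2B (5.16, SE 0.31), all on the log2 scale.

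**Figure D2:**
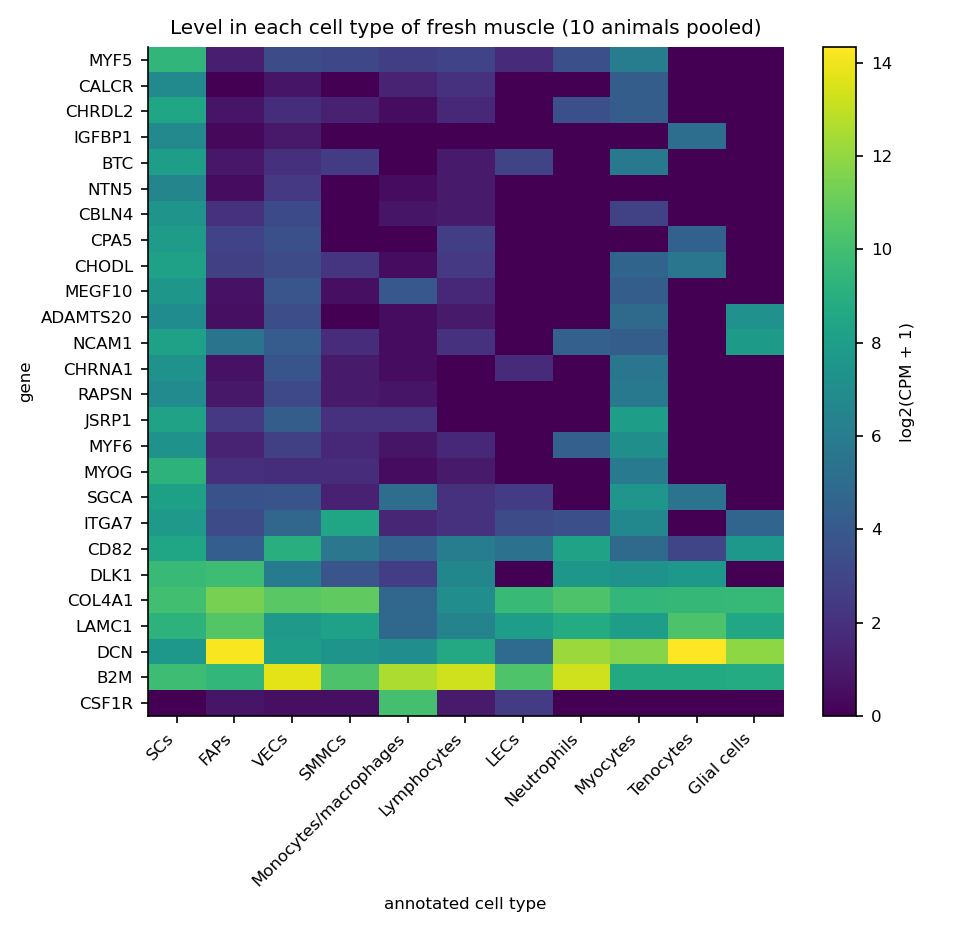
Heat map of 26 genes in the 11 annotated cell types of Timepoint 1, the 10 animals pooled, with colour for log2(CPM + 1). CHRDL2 and CALCR were at 18.05 CPM in myocytes, the next type after SCs, whereas NCAM1 was also high in glial cells (225 CPM) and MYF6 in myocytes (138 CPM).

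Of 15 myogenic transcription factors 8 passed the filter on low counts and were fitted. Of those, 4 were higher and 1 was lower in SCs, where 4.33% of all genes were higher and 13.5% lower. The lists here and below were written with earlier results of these data known. Some hold the markers or genes of the largest differences, so their shares are descriptions and no test. MYOG was not among the 8, although it was at 608 CPM in the pooled SCs, and its values per animal are given below. The median log2 fold change of the 8 was 1.83. PAX7, a factor that defines SCs, was sparse as RNA. It spanned 4.44 to 33.0 CPM with a median of 15.6 CPM and did not pass the filter on low counts. It was higher in SCs than in the other cells (0 to 1.11 CPM) in all 10 animals. The paper used staining of Pax7 protein to verify purified bovine SCs in culture, which is not a like measure. PAX3 had no UMI in the SCs or in any other annotated type. MYOD1, the factor of activation and commitment, spanned 43.8 to 291 CPM with a median of 116.5 CPM (log2 fold change 4.43, SE 0.28), and the other cells did not exceed 17.97 CPM.
MYF6, a factor of late differentiation that also marks fibres, spanned 78.0 to 313 CPM (5.27, SE 0.23) and stood at 138 CPM in myocytes. EYA1, a transcriptional coactivator of muscle precursors, had a log2 fold change of 2.12 (SE 0.19), and the homeobox gene PITX3 was at 34.1 ± 23.4 CPM (SD, n = 10). MEF2A, a factor of differentiating muscle, was the member lower in SCs, by a log2 fold change of -1.11 (SE 0.13).

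Genes of commitment and fusion were present in SCs of most animals. Levels of MYOG, ACTC1 and CDKN1C differed widely between animals, while JSRP1 (195 to 391 CPM) and CHRNA1 (51.2 to 208 CPM) varied less. Of 18 such genes 6 were fitted, 2 of them were higher in SCs (CHRNA1 and JSRP1) and 1 was lower (the brain-type creatine kinase CKB, -5.17), beside 4.33 and 13.5% of all genes, and the median log2 fold change was 3.86. MYOG, the factor that drives terminal differentiation, was at 675, 194, 841, 214 and 1060 CPM in the SCs of the 5 calves and at 93.9, 0, 1109, 301 and 235 CPM in those of the 5 adults, in the order of animals 2, 4, 5, 7 and 10 and animals 1, 3, 6, 8 and 9. The other cells of the 10 animals held 0 to 11.9 CPM. ACTC1, the actin of developing and regenerating muscle, was at 725, 161, 737, 138 and 821 CPM in calves and at 18.8, 0, 781, 118 and 22.1 CPM in adults. For both genes 4 animals (calves 2, 5 and 10 and adult 6) stood above the rest and adult 3 was at 0, so that calves and adults overlapped. CDKN1C, a cyclin-dependent kinase inhibitor of cells that leave the cycle, was highest in the same 4 animals, at 1575, 1550, 2629 and 1376 CPM against 71.7 to 636 CPM in the other 6, although over all SCs its log2 fold change against other cells was 0.68 (SE 0.50). MYMK, the membrane protein myomaker of cell fusion, spanned 10.2 to 99.9 CPM with a median of 34.3 CPM and was at 0 to 0.683 CPM in the other cells, and the embryonic acetylcholine receptor subunit CHRNG and the troponin TNNT2 averaged 42.7 and 60.9 CPM.

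The commitment genes were read in a minority of the SCs. MYOG had a UMI in 84 of the 647 SCs, in 9 of 10 animals. MYMK had a UMI in 57.1% of those 84 cells and in 1.07% of the other 563, and CDKN1C in 89.3% and 38.2%. The cells with MYOG were deeper, with a median of 5696.5 UMIs against 3655 UMIs, and the part of depth in the shares was not tested. Among the 434 SCs with a UMI of MYF5, CALCR was read in 31.6% and MYOD1 in 23.5%, against 10.3% and 41.8% of the SCs without MYF5, which had the higher median depth (4394 against 3646.5 UMIs). CALCR was read in 37.3% of the 268 SCs with CHRDL2 and in 15.6% of those without. These shares join cells of 10 animals and are given as descriptions.

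To set shares of cells on a common depth, each cell was thinned to 1500 UMIs, which left 631 SCs and left out 16. MYF5 was then read in 52.8% of SCs (mean over animals, range 40.3 to 70.7%), NCAM1 in 35.5% (24.6 to 47.2%), CHRDL2 in 33.1% (15.4 to 61.5%) and CALCR in 12.8% (6.67 to 25.6%). VECs and lymphocytes, which should lack these genes, had MYF5 in 0.6 and 1.3% of cells, CALCR in 0.1 and 0.8% and CHRDL2 in 0.2 and 0%. Of the other transcription factors, MYF6 was read in 20.4%, MYOD1 in 14.2%, MYOG in 9.33% and PAX7 in 2.52% of SCs. As deposited, without thinning, the shares were 69.7% for MYF5, 60.02% for NCAM1, 43.6% for CHRDL2, 24.4% for CALCR and 6.55% for PAX7.

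**Figure D3:**
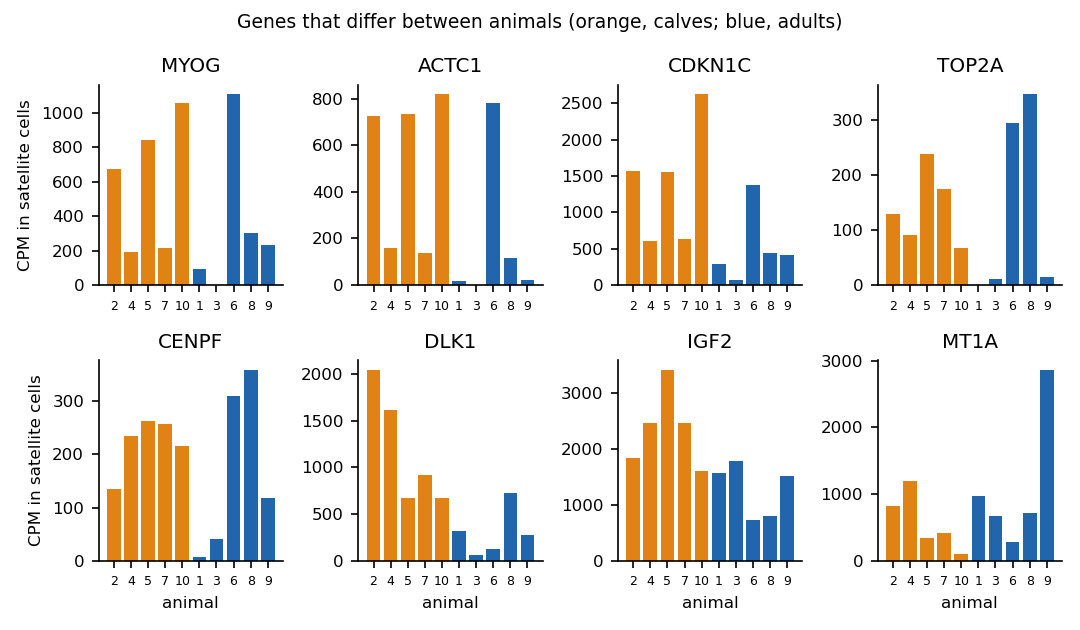
CPM of 8 genes in the SCs of each animal, with calves in orange and adults in blue. MYOG, ACTC1 and CDKN1C were highest in animals 2, 5, 6 and 10, and MYOG and ACTC1 were at 0 in adult 3.

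Surface receptors and adhesion molecules, through which SCs are held in their niche and sorted, held members on both sides. Of 30 genes 22 were fitted, 8 were higher and 6 lower in SCs, where 4.33 and 13.5% of all genes were, with a median log2 fold change of 0.11. Beside CALCR and NCAM1 the higher group held the lectin CHODL (81.9 to 529 CPM, log2 fold change 5.67, SE 0.27), the phagocytic receptor MEGF10 (20.5 to 309.5 CPM, 5.08, SE 0.17), the laminin receptor subunit ITGA7 (143 to 281 CPM, 2.15, SE 0.24), the R-spondin receptor LGR4 (1.73, SE 0.21), the proteoglycan SDC4 (1.29, SE 0.18) and the tetraspanin CD82 (1.15, SE 0.18). ITGA7 is a surface protein used to sort SCs, and SMMCs held more of it (344 CPM), as they did of SDC4 (97.9 against 63.1 CPM, animals pooled), while VECs held more CD82 (523 against 339 CPM). LGR4 was read at 99.9 CPM in glial cells, 56.4 CPM in tenocytes and 48.1 CPM in SCs (animals pooled). In glial cells and tenocytes 3 UMIs make 74.9 and 21.1 CPM, so no order is read from these levels. FGFR4, a fibroblast growth factor receptor of myogenic cells, was at 10.2 to 227 CPM in SCs and 0 to 7.70 CPM in the other cells and was not fitted. VCAM1, which serves to sort murine SCs, was lower in all 10 animals (-1.56, SE 0.31, median 14.3 CPM in SCs), as was SDC3 (-3.23), while CDH15, the M-cadherin of the SC contact with the fibre, reached no more than 18.8 CPM and the hepatocyte growth factor receptor MET no more than 29.4 CPM. The endothelial receptor TEK (-5.17), CD34 (-3.77), CD151 (-1.45) and the netrin NTN4 (-1.44) were also lower.

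In the Notch pathway, which keeps SCs quiescent, 13 of 16 genes were fitted, of which 1 was higher and 4 were lower, with a median of -0.20. Over all genes 4.33% were higher and 13.5% lower, smaller shares than in this list, which holds few genes. The target HEYL was the higher member, at 133 to 319 CPM with a median of 195 CPM (log2 fold change 1.75, SE 0.18), and the pooled SMMCs held 200.4 CPM. The target HES1 was higher in SCs in all 10 animals, by a log2 value of 0.89 (SE 0.13), below the fold rule. The Notch ligands DLL4 (-2.91) and JAG2 (-3.33) and the fringe glycosyltransferases LFNG (-1.24) and MFNG (-4.98) were lower. Among 16 regulators of quiescence 11 were fitted, none was higher by the rule and SPRY2, an inhibitor of receptor tyrosine kinase signalling, was lower (-2.30, SE 0.15), counts near the 4.33 and 13.5% of all genes. SPRY1, its relative known from quiescent murine SCs, differed by 0.25 (SE 0.13), and the factor FOXO1 by 0.86 (SE 0.13).

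Of 33 secreted ligands and binding proteins 19 were fitted, 4 were higher and 9 lower, with a median of -1.68. Over all genes 4.33% were higher and 13.5% lower. The list was written with earlier results of these data known and holds a marker and genes of the largest differences, so its larger shares are no test. The higher 4 were CHRDL2, IGFBP1, BTC and TGFB2, the latter a transforming growth factor at 158 to 306 CPM (log2 fold change 1.29, SE 0.14). The lower members were the growth factor binding proteins IGFBP4 (-5.13) and IGFBP7 (-2.74), the activin and myostatin antagonist FST (-5.64), the TAM receptor ligand GAS6 (-4.51), the chemokines CXCL12 (-3.57) and CCL2 (-5.22), BMP2 (-2.98), TGFB1 (-2.06) and the Wnt antagonist SFRP1 (-3.29). MSTN, the growth inhibitor myostatin, of which Belgian Blue cattle carry an inactive allele, had 3 UMIs in all SCs, from 3 animals.

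Of 14 genes of the dystrophin complex, which ties the cytoskeleton to the basement membrane, 13 were in the files, 7 were fitted, 3 were higher and 0 were lower (4.33 and 13.5% over all genes), with a median of 0.73. SGCA (alpha-sarcoglycan) spanned 192 to 381 CPM with a median of 269 CPM against 7.51 to 23.9 CPM in the other cells (log2 fold change 4.32, SE 0.16). DAG1 (dystroglycan) had a log2 fold change of 3.36 (SE 0.19) and SGCE of 1.21 (SE 0.14). SGCE was read at 249.8 CPM in the few glial cells, where 3 UMIs make 74.9 CPM, and at 183 CPM in SCs (animals pooled). From the 20 genes with the largest differences, CHRNA1, the alpha subunit of the muscle acetylcholine receptor, spanned 51.2 to 208 CPM with a median of 157 CPM (5.31, SE 0.29), and RAPSN, which clusters that receptor, 51.2 to 156 CPM with a median of 116 CPM (5.28, SE 0.20). Both were above every value in the other cells (at most 8.20 and 5.50 CPM), with myocytes next at 48.1 and 54.1 CPM.

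A small set of SCs carried genes of the cell cycle. Of 23 such genes 8 were fitted, 2 were higher and 0 lower (4.33 and 13.5% over all genes), with a median of 0.87. The kinetochore protein CENPF spanned 6.26 to 360 CPM with a median of 226 CPM (log2 fold change 3.62, SE 0.27), and the replication helicase subunit MCM7 was higher by 1.28 (SE 0.13). TOP2A, the topoisomerase of dividing cells, was at 130, 90.8, 238, 175 and 68.2 CPM in calves and at 0, 10.2, 295, 347 and 14.7 CPM in adults, in the animal order above. Adults held both the 3 lowest and the 2 highest values, and the calves lay between them. TOP2A had a UMI in 37 of 647 SCs, from 9 animals. CENPF was read in 89.2% of these 37 and in 2.46% of the other SCs, and the proliferation antigen MKI67 in 75.7 and 0.492%. The 37 cells had a median of 7629 UMIs against 3767.5 UMIs, and CALCR was read in 18.9% of them against 24.9% of the others.

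Among metal-handling genes, 9 were fitted, 3 were higher and 3 lower (4.33 and 13.5% over all genes), with a median of 2.14. The metallothioneins MT1A, MT2A and 1 of the 2 genes named MT1E, small proteins that bind zinc and copper, were the higher members. MT1E (ENSBTAG00000001595) was at 138 CPM in lymphatic endothelium and 127 CPM in SCs (animals pooled). The few glial cells held 275 CPM, where 3 UMIs make 74.9 CPM. MT1A ranged from 102 to 2867 CPM with a median of 698 CPM (log2 fold change 4.74, SE 0.66), and the highest value was in adult 9. MT2A spanned 997 to 3852 CPM with a median of 1961 CPM (2.94, SE 0.28), and reads of such close paralogs may be split between them. Tenocytes (3312 CPM) and lymphatic endothelium (2333 CPM) held more MT2A than SCs (2079 CPM, animals pooled). Ferritin heavy chain FTH1 (-1.10), haem oxygenase HMOX1 (-2.12) and the iron exporter SLC40A1 (-1.43) were lower. Of 30 immediate early and stress genes, which enzymatic digestion of muscle is known to induce, 29 were in the files and 22 fitted, with 1 higher, 3 lower and a median of 0.48, counts close to the 4.33% higher and 13.5% lower of all genes. EGR1 was the higher member, at 1375 to 3213 CPM (1.48, SE 0.21), while the nuclear receptors NR4A1 (-2.70) and NR4A2 (-1.93) and the phosphatase DUSP1 (-1.997) were lower. The heat shock gene HSPA1A ranged widely between animals, at 1300 to 20870 CPM with a median of 7502 CPM, and was higher in SCs in 9 of 10 animals.

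Of 20 genes of the interstitial matrix 19 were fitted, 16 were lower, against 13.5% of all genes, 0 were higher and the median was -3.48. The proteoglycan DCN had a median of 62.4 CPM in SCs (44.1 to 721 CPM) and a log2 fold change of -6.18 (SE 0.40), with the highest value in adult 6, and the fibrillar collagens COL1A1 and COL3A1 had -4.80 and -2.52. Basement membrane genes were closer to the other cells: of 18 genes 17 were in the files and 14 fitted, 0 were higher and 6 lower (4.33 and 13.5% over all genes), and the median was -1.17. The laminin chains LAMC1 and LAMA2 differed by -0.20 and 0.06 and the collagen COL15A1 by 0.13, while COL4A1 was at 617 to 1505 CPM in SCs and lower than in the other cells of every animal by -0.78 (SE 0.11). Laminin LAMA4 (-3.47) and the nidogens NID1 (-1.24) and NID2 (-3.35) were lower by the rule. Of 15 MHC genes 14 were in the files, 11 were fitted and 10 were lower (13.5% over all genes), with a median of -2.93. B2M, the light chain of class I molecules, spanned 535 to 1572 CPM with a median of 1002 CPM (-2.45, SE 0.11), and the class II genes CD74 and BOLA-DRA had -6.05 and -6.82.

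The 10 genes with the most negative fitted differences had no UMI at all in the 647 SCs. They were LYVE1, LCP1, CSF1R, FOLR2, CD163, PTPRC, C5AR1, PTGS2, CTSW and CR2, of which LYVE1 marks lymphatic endothelium and certain macrophages, CSF1R, FOLR2 and CD163 mark macrophages and PTPRC all leukocytes. Set against the level that 3 UMIs make in the pooled SCs (1.07 CPM), LYVE1 in SCs was at least 165-fold, CSF1R at least 147-fold and PTPRC at least 69.0-fold lower than elsewhere in the tissue. Over the 11 annotated types the SC profile had the highest Pearson r of log2 CPM across genes with FAPs (0.906), then SMMCs (0.892) and VECs (0.877). Myocytes stood at 0.846, but their sum held 166249 UMIs against 7723469 in FAPs, and the part of depth in r was not tested. Genes are not independent replicates and the types share a library, so these values are descriptions.

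**Figure D4:**
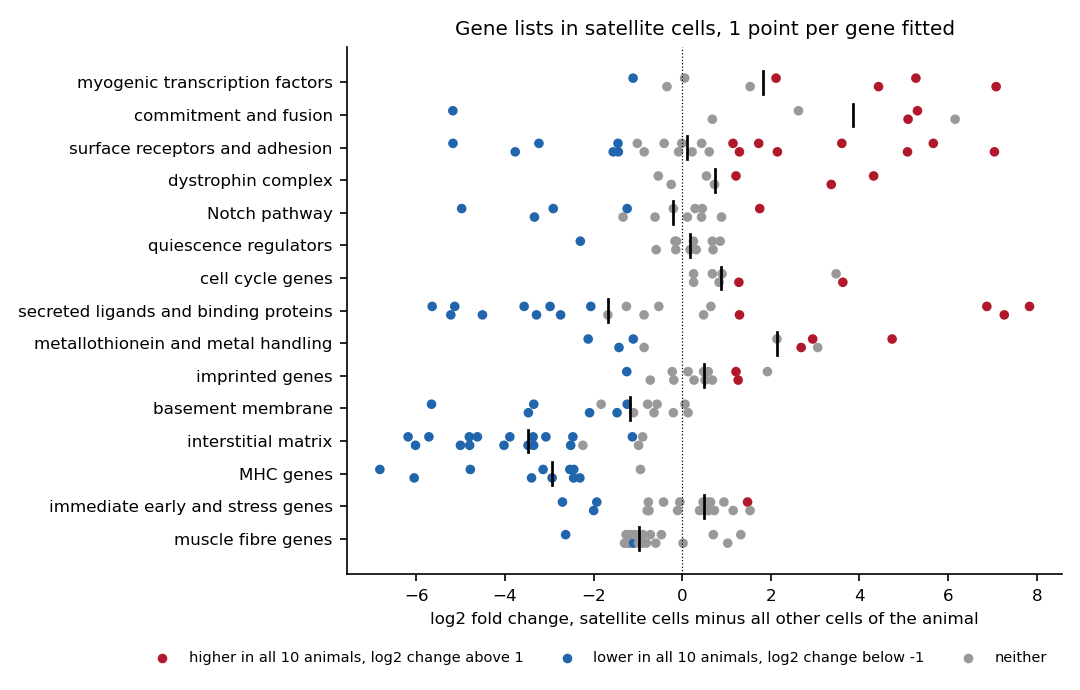
Log2 fold change of SCs against all other cells for each fitted member of 15 gene lists, red where higher and blue where lower past the fold in all 10 animals, grey where neither, with the median of each list as a black bar. Interstitial matrix (16 of 19 lower) and MHC genes (10 of 11 lower) lie to the left, and the 8 fitted genes of the cell cycle lie to the right, 2 of them past the fold.

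Of 28 muscle fibre genes 27 were in the files and 23 were fitted, 0 were higher, 2 were lower (TPM2, -2.63, and MYLPF, -1.09) and the median was -0.99. These counts are near the 4.33% higher and 13.5% lower of all genes. TPM2 was also high in SMMCs, at 5079 CPM against 136 CPM in SCs (animals pooled). Skeletal actin ACTA1 spanned 121 to 512 CPM in SCs, against 29648 CPM in myocytes. After thinning it was read in 25.5% of SCs, 41.8% of FAPs, 21.0% of VECs and 12.7% of lymphocytes. How much of the ACTA1 RNA in SCs came from free RNA was not tested. Genes for cytosolic ribosomal proteins took 244092 to 317315 CPM of SC sums and 169208 to 197298 CPM of the other cells, and of 81 fitted 0 were past the fold in either direction, with a median of 0.57.

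Calves and adults were then compared within the SCs, a comparison that the choice of cells did not use. Of 4155 genes tested 4 passed both an adjusted p of 0.05 and a 2-fold change (0.0963%), 2 of them higher (0.0481%) and 2 lower (0.0481%) in calves (edgeR quasi-likelihood test, Benjamini-Hochberg adjustment, n = 5 and 5 animals). At an unadjusted p below 0.05 there were 355 genes (8.54%), and the 5 calves and 5 adults did not overlap for 56 (1.35%), of which all calves lay above all adults for 40 (0.963%) and below for 16 (0.385%). Values below follow calves 2, 4, 5, 7 and 10, then adults 1, 3, 6, 8 and 9. Age cannot be told apart from anything else that differed between the 2 sets of animals.

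HPCAL1 (ENSBTAG00000004259), a neuronal calcium sensor of the visinin family, fell in calves relative to adults. Its levels were 33.9, 24.8, 24.5, 19.8 and 21.9 CPM in calf SCs and 138, 133, 140, 105 and 118 CPM in adult SCs. The groups lay far apart, with the highest calf well below the lowest adult (log2 fold change -2.36, SE 0.23, adjusted p = 2.5e-05 by edgeR). The other cells of the same animals differed the same way and without overlap, at 38.9 to 75.1 CPM in calves and 88.6 to 185 CPM in adults. SEPTIN4 (ENSBTAG00000015368), a filament-forming GTPase, was at 240, 157, 251, 257 and 222 CPM in calf SCs and 395, 369, 391, 546 and 544 CPM in adult SCs. Every calf lay below every adult (log2 fold change -1.04, SE 0.18, adjusted p = 0.0174 by edgeR). In the other cells the direction was opposite, with a mean of 42.3 CPM in calves (20.2 to 61.0) and 20.1 CPM in adults (8.25 to 35.1), and the ranges overlapped. Among the other types SEPTIN4 was highest in SMMCs (240 CPM, animals pooled) and low in FAPs (5.44 CPM). SMMCs made up 145 of the 735 cells of calf 4 and 41 of the 754 cells of calf 5. Values of the other cells, for HPCAL1 too, thus join the mix of types with the level in each type, and their parts were not tested. SEPTIN4 was also among the genes higher in SCs than in other cells (log2 fold change 3.33, SE 0.42).

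SMIM11A (ENSBTAG00000011528), which encodes a small membrane protein, and VWA1 (ENSBTAG00000021294), an extracellular matrix protein of the basement membrane, rose in calf SCs. SMIM11A was at 127, 115.5, 141, 89.0 and 87.7 CPM in calves and 37.6, 40.9, 35.5, 31.0 and 51.5 CPM in adults. VWA1 was at 64.9, 86.6, 76.4, 52.7 and 73.1 CPM in calves and 31.3, 30.7, 17.7, 18.6 and 14.7 CPM in adults. For both genes all calves lay above all adults, with log2 fold changes of 1.51 (SE 0.24) for SMIM11A and 1.68 (SE 0.29) for VWA1, and adjusted p-values of 0.0104 and 0.0174 by edgeR. In the other cells calves and adults overlapped, at 39.3 to 65.3 and 33.6 to 51.0 CPM for SMIM11A and 28.5 to 47.7 and 14.5 to 49.5 CPM for VWA1. With the fibre RNA share of each animal's SCs as a covariate 0 genes were called, and HPCAL1 had a log2 fold change of -2.37 with an adjusted p of 0.254 by edgeR. That share itself did not overlap between calves and adults. VWA1 had an adjusted p of 0.108 with DESeq2, and SEPTIN4 lost its call in sums thinned to the smallest total (-0.83) and without a filter on low counts (-0.99). In the thinned sums 1 gene was called higher and 0 lower in calves, not among the 4, and HPCAL1, SMIM11A and VWA1 did not pass the filter on low counts there. Calls of all 4 genes but HPCAL1 were lost when certain single animals were left out: VWA1 without calf 2, calf 5 or adults 6, 8 or 9, SMIM11A without calf 2, calf 5 or adult 8, and SEPTIN4 without calves 2, 4 or 5 or adults 8 or 9.

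**Figure D5:**
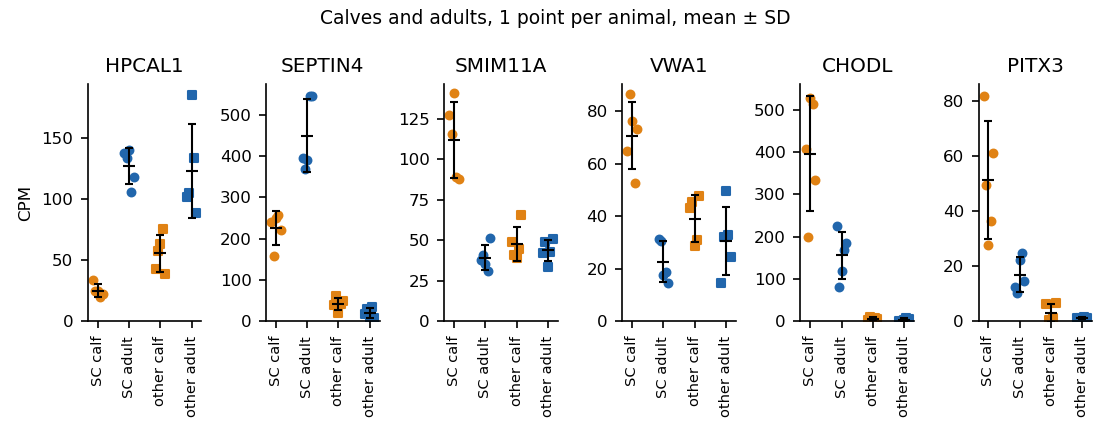
CPM per animal of HPCAL1, SEPTIN4, SMIM11A, VWA1, CHODL and PITX3 in SCs and in all other cells, calves against adults, with the mean and SD of 5 animals. In SCs all 5 calves lay below all 5 adults for HPCAL1 and SEPTIN4 and above them for SMIM11A, VWA1 and PITX3, while CHODL overlapped.

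Further genes from the lists are given with their values, and none of them passed the test. All but CHODL had no overlap between calves and adults in SCs, which held for 1.35% of all genes tested. They do not stand for their lists. No overlap was seen for 2 of 16 tested surface receptor and adhesion genes, 1 of 10 interstitial matrix genes and 0 of 6 Notch genes. Of 7 tested dystrophin complex genes, 1 lay above and 1 below in all calves. The lectin CHODL was at 407, 198, 529, 514 and 334 CPM in calf SCs and 225, 81.9, 120, 168 and 184 CPM in adults, with 1 calf below the highest adult (log2 fold change 1.29, SE 0.27, adjusted p = 0.161 by edgeR). The tetraspanin CD151 was at 146 to 198 CPM in calves and 71.7 to 132 CPM in adults (0.85, SE 0.19, adjusted p = 0.161). PLXNA2, a semaphorin receptor, was at 59.3 to 67.3 CPM in calves and 14.7 to 56.4 CPM in adults (1.35, SE 0.33, adjusted p = 0.219). The ranges of CD151 and PLXNA2 did not overlap. The matrix glycoprotein SPARC was at 1445, 1296, 1953, 2669 and 1725 CPM in calves and 1052, 1126, 1192, 1049 and 1125 CPM in adults (0.67, SE 0.16, adjusted p = 0.219), and SGCA at 285 to 381 and 192 to 253 CPM (0.51, SE 0.15, adjusted p = 0.456). PITX3 was too sparse to be fitted, at 27.5 to 81.9 CPM in calves and 10.2 to 24.8 CPM in adults. SNTB2, a syntrophin of the dystrophin complex, lay lower in every calf than in any adult (-0.64, SE 0.21, adjusted p = 0.456).

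Marker and commitment genes did not pass the test between ages. The log2 fold change of calves against adults was -0.71 (SE 0.32) for MYF5, 0.47 (SE 0.34) for CALCR, 0.00 (SE 0.56) for CHRDL2 and 0.13 (SE 0.22) for NCAM1, all with adjusted p of 0.581 or above by edgeR. For the commitment genes ACTC1 and CDKN1C it was 1.17 (SE 1.03) and 1.32 (SE 0.69). Among imprinted growth genes DLK1, a membrane ligand of growing muscle, was at 2049, 1617, 666, 919 and 670 CPM in calves and 319, 61.4, 122, 729 and 279 CPM in adults. All but 1 of the adults lay below the lowest calf, and the log2 fold change was 1.86 (SE 0.63, adjusted p = 0.467 by edgeR). IGF2, a fetal and postnatal growth factor, was at 1596 to 3418 CPM in calves and 734 to 1781 CPM in adults (0.84, SE 0.28, adjusted p = 0.462). Against other cells, 2 of 13 fitted genes of the 24 on the imprinted list were higher in SCs (MEST, 1.26, and SGCE) and 1 was lower (PEG3, -1.25), beside 4.33 and 13.5% of all genes. Tenocytes held more MEST than SCs (951 against 177 CPM, animals pooled). MT2A, at 997 to 2447 CPM in calves and 1404 to 3852 CPM in adults, had a log2 fold change of -1.05 (SE 0.31, adjusted p = 0.456).

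Summed over whole lists, 5 of the 15 lists had no overlap between calves and adults in SCs, and 0 of 15 in the other cells. Of single genes tested in SCs 1.35% had no overlap, and no such share was made for sums of other sets of genes. The lists were written with earlier results of these data known, and the contrast of SCs with the other cells was not tested for sums. Imprinted genes summed to 5008 to 6543 CPM in calf SCs and 2528 to 3031 CPM in adult SCs. Surface receptors and adhesion genes summed to 3361 to 3687 and 2191 to 2751 CPM, and the dystrophin complex to 1007 to 1228 and 787 to 931 CPM. Metal-handling genes were the list with lower sums in calves, at 3811 to 6631 CPM against 6684 to 7860 CPM. A few abundant members carry such sums, and they are given without a test. Fibre genes, the remaining list of the 5, made up 0.188 to 0.338% of SC UMIs in calves and 0.136 to 0.174% in adults. The same share was 0.282 to 0.331% and 0.214 to 0.277% in FAPs, also without overlap, and 0.120 to 0.317% and 0.0931 to 0.155% in VECs, which overlapped. In SMMCs it was 0.401 to 0.723% in calves and 0.462 to 0.990% in adults, with the higher median in adults (0.694 against 0.556%). Most of the SMMC share (0.619% with animals pooled) was TPM2, at 5079 CPM in SMMCs against 136 CPM in SCs. The SMMC values are therefore not a like measure of the other fibre genes. Of 16 fibre genes tested 15 had a positive log2 fold change in calf SCs (median 0.85, against -0.03 over all genes tested) and 0 were called.

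Whether an age difference was particular to SCs was tested as the interaction of age and cell type within animals. Of 7755 genes 0 were called (0.0%) by edgeR, and 481 had an unadjusted p below 0.05 (6.2%). By edgeR's quasi-likelihood test the interaction was -2.19 (SE 0.47, adjusted p = 0.355) on the log2 scale for SEPTIN4, -1.19 (SE 0.31, adjusted p = 0.355) for HPCAL1, 1.27 (SE 0.30, adjusted p = 0.355) for SMIM11A and 1.43 (SE 0.39, adjusted p = 0.360) for VWA1. For none of the 4 was the difference between ages shown to differ between SCs and the other cells. The mix of types in the other cells differed between animals, and the interaction cannot tell that mix from the level in each type.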

How the data were processed

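The authors aligned the reads with Cell Ranger 6.0.1 to ARS-UCD1.2 (Ensembl release 101) and deposited UMI counts per gene and barcode. Their 2 cell tables give the demuxlet call and, for cells that passed quality control, the cell type (Seurat clustering and label transfer). A cell passed when it lay no more than 3 median absolute deviations from the median in genes, counts and mitochondrial share. Of 8980 barcodes of the Timepoint 1 matrix, 5237 were singlets, 728 doublets (8.11%, left out, as were 2817 ambiguous and 198 negative barcodes), and 4395 passed quality control. The animal agreed between the tables for all 4395 cells, and 4 SC barcodes also occur in another library. The deposited counts were used as they are, over 21880 genes, of which 16828 have a symbol. The percent of mitochondrial UMIs per cell was taken as the authors deposited it. The 18 other columns of the cell tables were not used.

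Counts were summed per animal over SCs (at least 10 cells) and over the other cells. Calves and adults were compared with edgeR 4.0.16 in R 4.3.3 (quasi-likelihood, robust, TMM factors, filterByExpr, Benjamini-Hochberg over all genes tested), with a call where the adjusted p was below 0.05 and the log2 fold change beyond 1 in size. SCs against other cells was fitted the same way with the animal as a block and is described without a p. Both sums of an animal come from the same animal, which is the pairing. Alternatives were DESeq2 1.42.0, RLE factors, no filter, other comparison cells, covariates and leaving out animals. Medians per cell were compared by an exact permutation test over animals. Scripts were tested on simulated data.

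Named genes were the 4 markers, the 20 highest and 10 lowest genes with a symbol against other cells, the called genes of calf against adult, and members of the gene lists. The cells, the genes and the lists were chosen with earlier results of these data known. On the lists, BOLA-DRB3, COL19A1, DMD, IER5, MEG3, MEG8, MEG9, H19, HBA1 and TTN were not analysed here, and a few further genes are not reported here. Genes that share a symbol (68 symbols) and close paralogs are uncertain.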

Additional observations from a re-analysis of the deposited data

Results flagged for a closer look

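Over the 10 animals, 33 groups of values in SCs were searched for a single animal far from the rest, a search that by chance picks out about 1 in 20, and 2 were found. CHRNA1 was at 51.2 CPM in the SCs of adult 3, the lowest of the 10 animals, where the next lowest was at 125 CPM. This sum was the shallowest, with 26 SCs and 97693 UMIs. The median mitochondrial share of SCs was highest in 1 animal, at 4.51% of UMIs, against a mean of 3.38% over the 10.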

How the results depend on the processing

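Without the replicate block, that is without pairing the 2 sums of an animal, 282 genes were higher and 876 lower in SCs, of which 278 and 871 were among the 281 and 878, and the interaction had 0 and 0 calls. Against FAPs alone 548 genes were lower (4450 tested), without a filter 1882 (16722 tested), and the difference from FAPs was -1955.3 UMIs and -557.5 genes per cell, past the exact permutation test. In place of 2 genes called higher and 2 called lower in calves, other fits called 24 and 13 without a filter on low counts, 4 and 3 with sex as a covariate, 1 and 0 with sums thinned to the smallest total (1542 genes tested) and 0 and 0 with fibre RNA as a covariate; DESeq2 and RLE factors gave 2 and 2 each, of which 1 and 2 were shared for DESeq2. The cause was not tested, except that thinning and the missing filter change the genes tested. Leaving out 1 animal gave 0 to 3 higher and 1 to 4 lower calls: the higher calls dropped to 0 without calf 2, calf 5 or adult 8 and to 1 without adult 6 or adult 9, and the lower calls were 1 without calf 2, calf 5 or adult 8 and 4 without calf 4. HPCAL1 kept its call whichever animal was left out, with adjusted p from 5.9e-05 to 2.3e-04 by edgeR, lost it with fibre RNA (adjusted p = 0.254), and did not pass the filter on low counts in the thinned sums, so that it was not tested there. VWA1 had an adjusted p of 0.108 with DESeq2 and 0.914 with fibre RNA, SMIM11A 0.254 and SEPTIN4 0.914 with fibre RNA, and SEPTIN4 lost its call when thinned (-0.83) and, at -0.99, without a filter. The interaction had 33 positive and 9 negative calls without a filter and 0 to 1 and 0 when animals were left out (1 without adult 9 or calf 10). No result tried changed direction while called. Between 26 and 98 SCs per animal limit what could be seen in genes as sparse as PAX7.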
